A study of Mus musculus with 6 samples.

Results

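Acid-base genes of the intercalated cell were examined in kidney tissue lacking fumarate hydratase. The genes were Foxi1, Slc4a1, Slc4a9, Slc26a4, Rhcg, Rhbg, Atp6v1b1, Atp6v0d2, Atp6v1g3 and Atp6v1c2. They were taken by name, through probe sets that the platform annotation gives to exactly 1 of them. Of these 10 genes, 9 were measured among 18193 genes in all, by 12 of 45101 probe sets. No probe set of the annotation used here was paired with Atp6v1g3, which was not analysed here. The data were 3 arrays of cystic renal epithelium from Fh1 knockout mice and 3 arrays of renal epithelium from wild-type littermates, which were disease-free and matched for sex. The tissue was dissected by eye, so each RNA is a mixture of cell types. Strain, age, the promoter or Cre line behind the knockout and the number of animals per array are not given in the labels, so p-values measure only the spread between these samples, which may be technical.

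Intercalated cells sit among the principal cells of the connecting tubule and collecting duct and set the final acidity of urine. Type A cells pump protons into the urine with a vacuolar proton pump (V-ATPase) and return bicarbonate to the blood through the exchanger AE1. Type B cells do the reverse and secrete bicarbonate through pendrin. Ammonia, the main carrier of acid in urine, crosses collecting duct cells through the Rh glycoproteins, and the forkhead factor Foxi1 is required in mice for intercalated cells to form.

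Fh1, the knocked-out gene, read 11.54, 11.60 and 11.61 in knockout arrays, against 12.41, 12.34 and 12.22 in wild-type arrays (log2 values of robust multi-array averaging, RMA, as for every level that follows). Its log2 difference was -0.74 (SE 0.08, limma adjusted p = 0.000396), and the groups did not overlap. The position of its probe set relative to the deletion is not given. Arrays correlated at 0.995 to 0.997 within the knockout group, 0.988 to 0.992 within the wild-type group and 0.952 to 0.964 between groups, across genes, which are not independent replicates. The kidney markers Umod and Lrp2 stood at or above the percentile 97.5 of the arrays in both groups. A gene was called where limma's moderated test, 2-sided, gave a Benjamini-Hochberg adjusted p under 0.05 over all 18193 genes. The fit called 49.2% of them, 27.7% lower and 21.6% higher in the knockout (5031 and 3928 genes, 56.2% of the calls lower). Without knockout array 1 the lower genes numbered 3160 (17.4%), and without knockout array 3 they numbered 3279, while 7 of the intercalated cell genes were lower with any 1 array left out. With each array centred on the median of the genes tested, 6866 genes were lower and 3380 higher (67.0% lower).

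Most of the intercalated cell genes fell in Fh1 knockout tissue. Of the 9 measured, 7 were called lower and 0 higher, where 27.7% of all genes were called lower. Bicarbonate exchangers and Rh ammonia transporters fell by 2.06-fold to 5.45-fold, and the pump subunits Atp6v1b1 and Atp6v1c2 by 2.19-fold and 1.73-fold. Foxi1, the transcription factor, and the pump subunit Atp6v0d2 did not pass the test. The median log2 difference was -1.13 over the 9 genes and -0.11 over all genes. A fold of 2 or more was reached downward by 6 of the 9, and by 3.39% of all genes. The groups did not overlap, with the knockout lower, for 7 of the 9 genes and for 37.1% of all genes. Because the tissue was measured in bulk, fewer intercalated cells and less RNA of these genes per cell cannot be told apart.

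**Figure D1:**
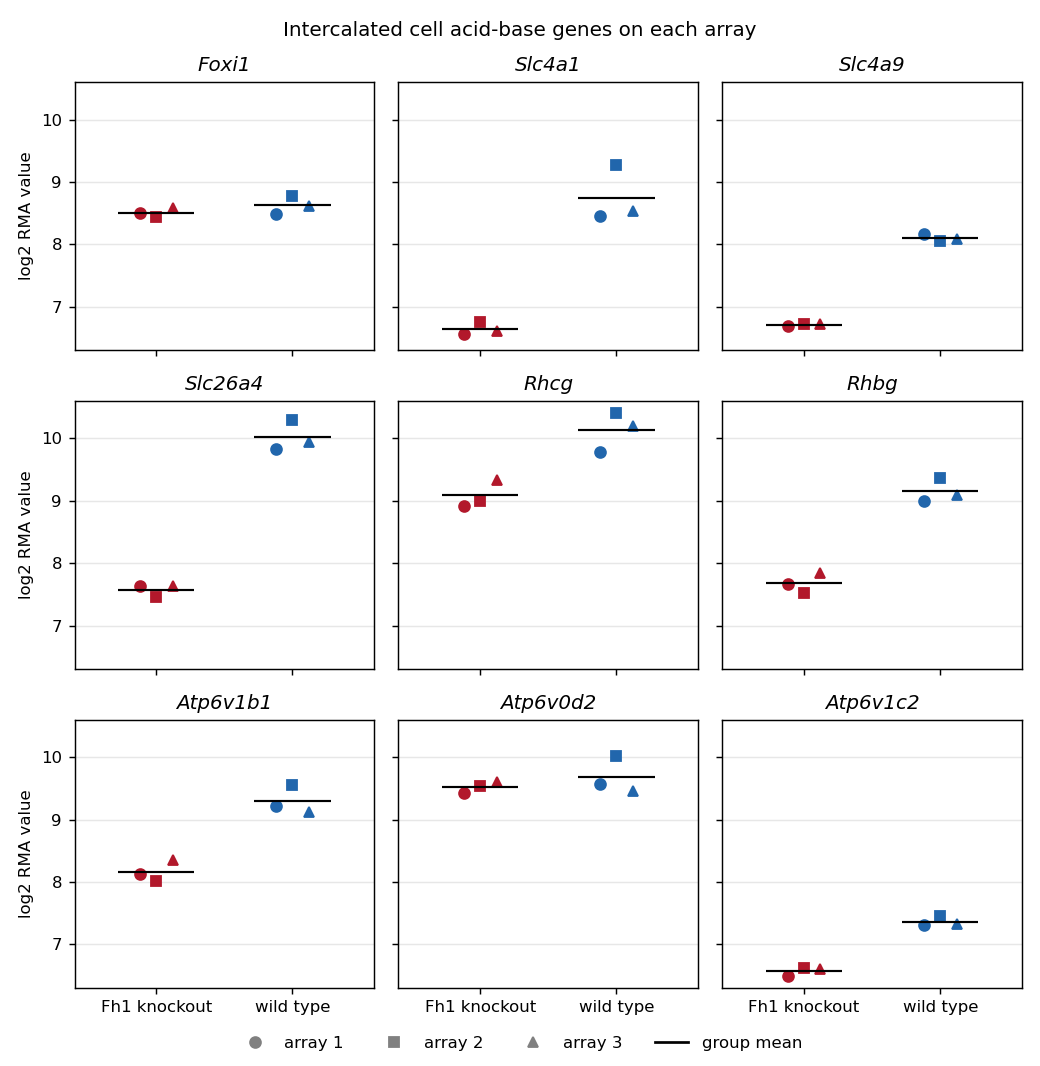
Log2 RMA values (vertical axes, one scale) of the 9 measured genes on each array, with 3 Fh1 knockout arrays left and 3 wild-type arrays right in each panel and a line at the group mean. Knockout and wild-type points are separate in 7 panels and interleave for Foxi1 and Atp6v0d2. Array 2 is the highest wild-type point in 8 panels, and its share over all genes was not counted.

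Foxi1, the forkhead transcription factor that stands above the other genes in intercalated cell development, read 8.50, 8.44 and 8.58 in knockout arrays, against 8.49, 8.78 and 8.62 in wild-type arrays. The groups overlapped, and the lowest wild-type array lay between knockout values. The log2 difference was -0.12 (SE 0.10, limma adjusted p = 0.315), with a 95% interval from -0.35 to 0.11, or a knockout level between 0.783 and 1.08 times that of the wild type. Of all genes, 48.7% had a difference as low or lower, which places Foxi1 at about the middle of the array. It was called under none of the 15 alternative settings, and its adjusted p ran from 0.0763 to 0.696 over them and the reported fit.

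Slc26a4 encodes pendrin, the chloride-bicarbonate exchanger on the urinary face of type B cells. It fell the most of the 9 genes. Its values were 7.64, 7.45 and 7.63 in knockout arrays, against 9.83, 10.29 and 9.94 in wild-type arrays. The knockout arrays lay within 0.2 of each other and more than 2 log2 units below the lowest wild-type array. Slc26a4 thus fell 5.45-fold (log2 difference -2.45, SE 0.13, limma adjusted p = 2.38e-05). Only 55 of the 18193 genes, Slc26a4 included, had a difference as low.

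Slc4a9 encodes AE4, an exchanger of the SLC4 family on the blood face of type B cells. It read 6.69, 6.72 and 6.72 in knockout arrays, against 8.17, 8.06 and 8.09 in wild-type arrays. The spread within each group was the narrowest of the 9 genes, with SDs of 0.02 and 0.05. Slc4a9 fell 2.63-fold (log2 difference -1.39, SE 0.08, limma adjusted p = 2.38e-05), and it was the only one of the 9 whose highest wild-type array was not array 2.

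Slc4a1 encodes AE1, the chloride-bicarbonate exchanger on the blood face of type A cells, where it returns bicarbonate to the blood. It is also band 3, a main membrane protein of red blood cells. The probe set with the highest mean read 6.56, 6.76 and 6.61 in knockout arrays, against 8.45, 9.27 and 8.53 in wild-type arrays. All knockout arrays were lower, and wild-type array 2 stood above the other two. The log2 difference was -2.11 (SE 0.21, limma adjusted p = 0.000210), a 4.32-fold fall, and without wild-type array 2 it was -1.85.

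The gene had 2 further probe sets, tested in a fit over all probe sets, of which 23.4% were called lower. Probe set 1434502_x_at read 5.71, 5.15 and 5.65 in knockout arrays, against 8.66, 9.48 and 7.98 in wild-type arrays, a log2 difference of -3.20 (SE 0.34, limma adjusted p = 0.000292). Probe set 1431743_a_at read 4.20, 4.32 and 4.24 in knockout arrays, against 4.93, 5.07 and 4.85 in wild-type arrays, a log2 difference of -0.70 (SE 0.09, limma adjusted p = 0.000742). The 3 probe sets had one direction and different sizes. The last stood at percentile 17.9 of knockout and 28.9 of wild-type arrays, a range where RMA values cannot be separated from background.

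Red cell transcripts moved with Slc4a1. Of 9 measured erythroid markers, 6 were lower and 0 higher, where 27.7% of all genes were lower. All 9 lay below the median signal of the genes, so none was tested among the brighter genes, and Hba-a1, at percentile 8.52 of knockout and 14.7 of wild-type arrays, cannot be separated from background. Over the 9 markers the mean log2 level of an array ran from 5.43 to 5.54 in the knockout group, against 6.03 to 6.06 in the wild-type group. Alas2, the erythroid enzyme of haem synthesis, fell 3.49-fold, the erythroid transcription factor Klf1 2.09-fold, and Ank1, the ankyrin that binds band 3, 1.45-fold. The globin genes were read mainly by probe sets shared between them, which name no single gene and were picked with their values in view. The beta-globin set read 11.29, 11.59 and 11.43 in knockout arrays, against 13.29, 13.38 and 13.23 in wild-type arrays, and fell 3.65-fold. Alpha-globin probe sets, 3 in number, fell by 3.24-fold to 4.96-fold. The part of red cell RNA in the fall of Slc4a1 was not tested.

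**Figure D2:**
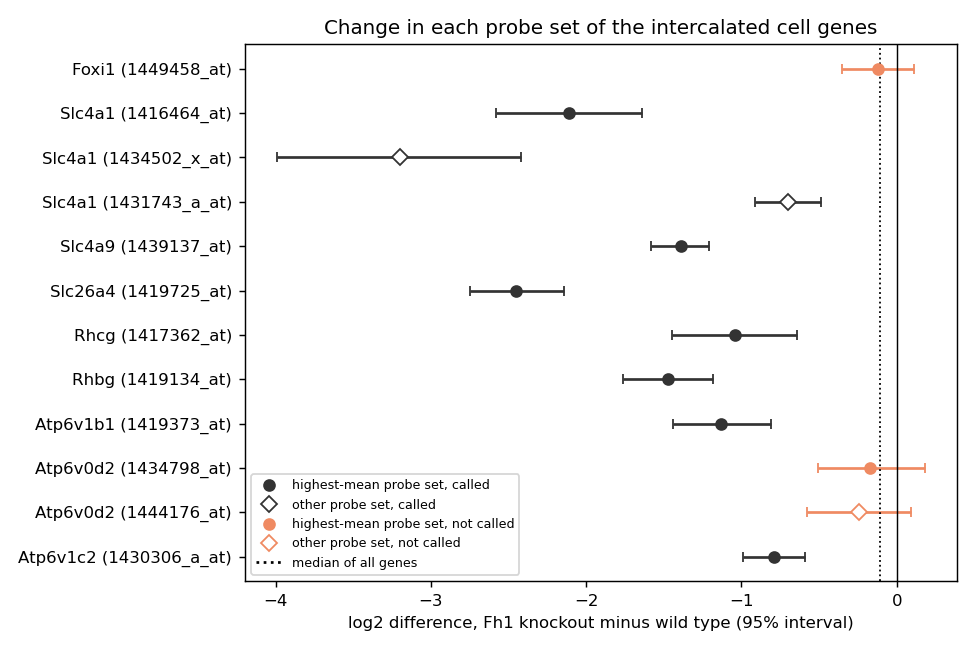
Log2 difference, Fh1 knockout minus wild type, with its 95% interval (limma, horizontal axis) for each of the 12 probe sets of the 9 measured genes. The 9 dark points passed the test over all probe sets and lie between -3.20 and -0.70, whereas the probe sets of Foxi1 and Atp6v0d2 have intervals that include 0.

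Both Rh ammonia transporters fell. Rhbg, which sits on the blood face of collecting duct cells, read 7.67, 7.53 and 7.84 in knockout arrays, against 8.99, 9.36 and 9.10 in wild-type arrays. The groups stood more than 1 log2 unit apart. This was a 2.77-fold fall (log2 difference -1.47, SE 0.13, limma adjusted p = 0.000120). Rhcg, which is also found on the urinary face and in principal cells, read 8.92, 9.00 and 9.34 in knockout arrays, against 9.78, 10.41 and 10.20 in wild-type arrays. The groups came closest at knockout array 3 and wild-type array 1 and did not overlap. Rhcg fell 2.06-fold (log2 difference -1.04, SE 0.18, limma adjusted p = 0.00265).

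The V-ATPase couples a cytosolic head, V1, which splits ATP, to a membrane sector, V0, which carries protons. Several of its subunits exist in a form used by most cells and a form enriched in intercalated cells. Among the enriched forms, Atp6v1b1, the B subunit of the head that is mutated in human distal renal tubular acidosis with deafness, read 8.13, 8.02 and 8.36 in knockout arrays, against 9.22, 9.55 and 9.12 in wild-type arrays. The groups did not overlap. The log2 difference was -1.13 (SE 0.14, limma adjusted p = 0.000557), a 2.19-fold fall. Atp6v1c2, a form of the C subunit that links head and stalk, read 6.50, 6.62 and 6.60 in knockout arrays, against 7.31, 7.45 and 7.33 in wild-type arrays. Arrays of one group lay within 0.2 of each other, and the groups did not overlap. The log2 difference was -0.79 (SE 0.08, limma adjusted p = 0.000289), a 1.73-fold fall.

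Atp6v0d2, a d subunit of the membrane sector that is also made by macrophages and osteoclasts, read 9.43, 9.54 and 9.60 in knockout arrays, against 9.57, 10.03 and 9.46 in wild-type arrays. Wild-type arrays 1 and 3 lay inside the knockout range. The log2 difference was -0.17 (SE 0.15, limma adjusted p = 0.371), with a 95% interval from -0.52 to 0.18, and without wild-type array 2 it was 0.01 (adjusted p = 0.963). Its second probe set, 1444176_at, read 8.29, 8.64 and 8.72 in knockout arrays, against 8.81, 8.99 and 8.58 in wild-type arrays (log2 difference -0.24, SE 0.15, adjusted p = 0.202 in the limma fit over all probe sets). Neither probe set passed the test.

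Macrophage markers were higher in the same knockout tissue. Of 16 macrophage and osteoclast markers, 11 were higher and 1 lower, where 21.6% of all genes were higher, and 2 were lower without knockout array 2. The mean log2 level of the list ran from 8.62 to 8.96 in knockout arrays, against 7.46 to 7.70 in wild-type arrays. Cd14, a co-receptor for bacterial lipopolysaccharide, rose 7.86-fold, Laptm5, a lysosomal protein of blood cells, 5.08-fold, and the complement gene C1qb 4.86-fold. Acp5, the tartrate-resistant acid phosphatase of osteoclasts, fell 1.48-fold. Ctsk, from the same list, rose 1.80-fold, and Csf1r, Dcstamp, Ocstamp and Mmp9 did not pass the test. RMA values contain no true 0, so absence of a marker could not be read from them. The part of macrophage RNA in the level of Atp6v0d2 was not tested.

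The changes of the 9 genes followed the order Slc26a4, Slc4a1, Rhbg, Slc4a9, Atp6v1b1, Rhcg, Atp6v1c2, Atp6v0d2 and Foxi1. The 95% interval of each overlapped that of the next, except between Atp6v1c2 (-0.98 to -0.60) and Atp6v0d2 (-0.52 to 0.18). Relative to Foxi1 on the same array, and set to a wild-type mean of 0, Slc26a4 stood at -2.26, -2.38 and -2.33 in knockout arrays, against -0.05, 0.12 and -0.07 in wild-type arrays. Relative to Atp6v0d2, Atp6v1b1 stood at -0.91, -1.13 and -0.85 in knockout arrays, against 0.04, -0.09 and 0.05 in wild-type arrays. These last pairs were picked with their values in view and were not tested.

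The 250 bases before the RefSeq start of transcription (GRCm38.p6) were read for the 6 of the 10 genes that matched the promoter table. The letters searched were the forkhead core TGTTT and the longer forms TGTTTAC and TGTTTGT, which both contain it, on both strands. The sequences given are those of Atp6v1b1 and Slc26a4, which fell, and of Foxi1, which did not pass the test, with the core or its reverse complement in capitals. Each sequence runs 5′ to 3′ on the strand of its gene.
Atp6v1b1, chr6:83742767-83743016, plus strand: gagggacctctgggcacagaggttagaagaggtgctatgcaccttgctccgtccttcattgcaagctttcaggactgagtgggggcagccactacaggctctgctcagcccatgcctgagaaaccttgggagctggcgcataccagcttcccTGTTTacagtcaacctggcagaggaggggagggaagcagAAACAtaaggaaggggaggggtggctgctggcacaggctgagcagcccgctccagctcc
Slc26a4, chr12:31559985-31560234, minus strand: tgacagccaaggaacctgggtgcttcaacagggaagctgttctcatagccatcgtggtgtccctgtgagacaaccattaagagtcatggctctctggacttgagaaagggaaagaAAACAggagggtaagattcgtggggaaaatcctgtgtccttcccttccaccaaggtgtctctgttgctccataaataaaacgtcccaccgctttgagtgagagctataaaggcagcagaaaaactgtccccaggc
Foxi1, chr11:34208090-34208339, minus strand: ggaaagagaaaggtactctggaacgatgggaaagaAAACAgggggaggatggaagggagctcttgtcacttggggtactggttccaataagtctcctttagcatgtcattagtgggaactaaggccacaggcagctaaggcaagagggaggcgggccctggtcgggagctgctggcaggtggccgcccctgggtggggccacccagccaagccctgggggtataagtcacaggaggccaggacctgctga

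The core occurred in 4 of the 6 promoters read, against 46.4% of 32851 promoters of the table. In Atp6v1b1 the plus-strand match continued as TGTTTAC, a form held by 3.17% of all promoters, and no other of the 6 held it. TGTTTGT was found in Atp6v1g3 alone, against 5.84% of all promoters. Rhcg and Atp6v1c2, which fell, had no match in this window. These letters describe the window and say nothing of binding.

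Intercalated-enriched subunits of the pump were set beside a form of the same subunit that most cells use, as the change in their difference on the same array. Atp6v1b1 fell relative to its partner Atp6v1b2 by 0.64 on the log2 scale. Atp6v1b2 itself read 11.69, 11.62 and 11.57 in knockout arrays, against 12.19, 12.03 and 12.13 in wild-type arrays (log2 difference -0.49, SE 0.08, limma adjusted p = 0.00267). Both forms were lower, and the difference between them did not overlap between the groups. With the probe sets of each gene averaged, the log2 difference of Atp6v1b2 was -0.28 (limma adjusted p = 0.0214). The difference between the forms then changed by -0.85, and without wild-type array 2 by -0.47, so its size depends on the probe sets and arrays used.

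Atp6v1c2 decreased by 1.23 relative to Atp6v1c1. Atp6v1c1 read 11.09, 11.16 and 11.04 in knockout arrays, against 11.08, 10.60 and 10.27 in wild-type arrays, and did not pass the test (log2 difference 0.44, SE 0.19, limma adjusted p = 0.0793), except without wild-type array 1 (0.66, adjusted p = 0.00694). With its probe sets averaged the log2 difference was 0.09 (adjusted p = 0.608). The partner's wild-type values were spread over more than 0.8, and with the mean of all probe sets of each gene the relative fall was 0.88.

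Among the subunit pairs chosen, that of the a subunit of the membrane sector showed the widest split. Atp6v0a4, whose mutation also causes distal renal tubular acidosis in humans, read 8.28, 8.24 and 8.67 in knockout arrays, against 9.56, 9.83 and 9.65 in wild-type arrays (log2 difference -1.28, SE 0.13, limma adjusted p = 0.000281). Atp6v0a1, by its brightest probe set, went the other way, with 8.27, 8.22 and 8.15 in knockout arrays, against 7.75, 7.35 and 7.88 in wild-type arrays (log2 difference 0.56, SE 0.14, limma adjusted p = 0.0132). With its 4 probe sets averaged, Atp6v0a1 no longer passed (log2 difference 0.25, adjusted p = 0.137). The difference between the 2 genes changed by -1.84, and by -1.53 with the probe sets averaged. Another form, Atp6v0a2, was brighter than Atp6v0a1 in wild-type arrays (mean 9.01 against 7.66) and was not paired. Its log2 difference was -0.30 (SE 0.09, limma adjusted p = 0.0295), so the size of the split depends on the partner chosen.

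Atp6v0d2 and its partner Atp6v0d1 had a change in their difference of 0.08, with overlapping groups. Atp6v0d1 read 10.63, 10.66 and 10.63 in knockout arrays, against 10.92, 10.86 and 10.88 in wild-type arrays (log2 difference -0.25, SE 0.07, limma adjusted p = 0.0245). That call was lost without any 1 knockout array or wild-type array 1 (adjusted p = 0.0570 to 0.0804). In exact 2-sided permutation tests, the B, C and a subunit pairs each gave p = 0.1, the smallest that 3 against 3 arrays allow, and the d subunit pair p = 0.7. None can pass at 0.05 in this design, and adjusted over 6 pairs the values were 0.15 and 0.7. A change in a difference shows unequal change, not that a partner was unchanged.

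**Figure D3:**
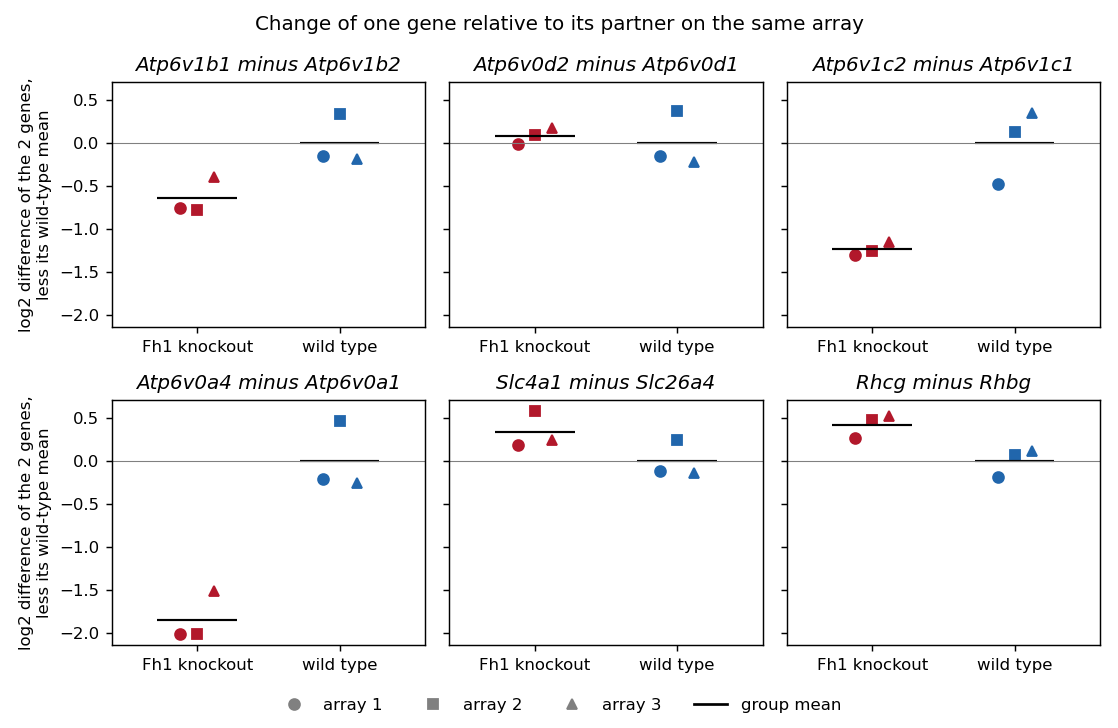
Log2 value of one gene minus that of its partner on the same array, less the wild-type mean of that difference (vertical axes, one scale), for 3 Fh1 knockout arrays (left in each panel) and 3 wild-type arrays (right), with group means as lines. Knockout and wild-type points are apart for the pairs of B, C and a subunits and for Rhcg and Rhbg, and overlap for the d subunits and for Slc4a1 and Slc26a4.

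Between the exchanger of type A cells and that of type B cells, the difference Slc4a1 minus Slc26a4 changed by 0.34, with overlapping groups (exact permutation p = 0.3, adjusted p = 0.36 over 6 pairs). With the probe sets of each gene averaged the change was 0.44, without overlap (exact permutation p = 0.1), and without wild-type array 2 it was 0.46, also without overlap (exact permutation p = 0.2), each the smallest p possible there. Rhcg minus Rhbg changed by 0.43, without overlap, so that Rhbg was the lower of the pair relative to its wild-type level (exact permutation p = 0.1, adjusted p = 0.15 over 6 pairs).

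Of 18 other V-ATPase subunits and accessory proteins measured, 8 were lower, 2 higher and 8 did not pass, with a median of -0.14, against 27.7% lower, 21.6% higher and a median of -0.11 over all genes. Leaving out any 1 knockout array left 5 lower, when 17.4% to 20.3% of all genes were lower. Besides Atp6v0a4, the largest fall was in Atp6v0e2, a small subunit of the membrane sector, at 1.80-fold. Tcirg1, the a subunit of osteoclasts and macrophages, rose 1.98-fold, with 8.59, 8.75 and 8.87 in knockout arrays, against 7.79, 7.62 and 7.84 in wild-type arrays. The other subunit that rose was Atp6v0a1, whose call was lost when its probe sets were averaged. Macrophage markers rose in the same arrays as given above, and the part of macrophage RNA in the level of Tcirg1 was not tested.

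Other genes used by intercalated cells were split. Of 19 measured, 10 were lower, 2 higher and 7 did not pass, with a median of -0.32, where 27.7% of all genes were lower and 21.6% higher. The count of higher genes was 1 without knockout array 1, knockout array 2 or wild-type array 3, and 4 without wild-type array 2. Oxgr1, the receptor for oxoglutarate in type B cells, fell 7.47-fold, with 5.78, 5.07 and 5.77 in knockout arrays, against 8.47, 8.82 and 8.03 in wild-type arrays (limma adjusted p = 0.000119). Its fold was larger than that of each of the 9 genes in its brightest probe set, and the knockout values lay under the median of their arrays.

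The 2 potassium-proton pumps of the list moved in opposite directions. Atp4a, the alpha subunit of the gastric form, read 6.79, 6.47 and 7.42 in knockout arrays, against 8.61, 9.82 and 8.53 in wild-type arrays, a 4.26-fold fall (limma adjusted p = 0.00319). Atp12a, the alpha subunit of the colonic form, read 5.92, 6.90 and 6.97 in knockout arrays, against 4.72, 4.86 and 4.48 in wild-type arrays, a 3.75-fold rise (limma adjusted p = 0.00111). Its wild-type values stood at percentile 23.9 of the arrays, so the size of that fold is uncertain. Aqp6, a water channel of intracellular vesicles in type A cells that was chosen after its values were seen, read 8.33, 8.49 and 8.54 in knockout arrays, against 9.46, 10.21 and 9.19 in wild-type arrays, a 2.25-fold fall (limma adjusted p = 0.00572). That is the brightest of its 4 probe sets. Kit, the other gene of the list called higher, rose 1.32-fold (limma adjusted p = 0.0294). The other genes of the list called lower were Bsnd (2.57-fold), Avpr1a (2.25-fold), Car12 (2.14-fold), Insrr (1.97-fold), Car2 (1.39-fold), Slc26a11 (1.25-fold) and Ap1b1 (1.21-fold). The 7 that did not pass were Hepacam2, Dmrt2, Tfcp2l1, Slc26a7, Slc4a8, Kcnma1 and Car15. Their log2 differences were 0.30, 0.40, -0.01, -0.33, -0.25, -0.03 and 0.04, in that order.

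Principal cells share the collecting duct with intercalated cells. Of 14 principal cell markers, 4 were lower, 1 higher and 9 did not pass, with a median of -0.02, where 27.7% of all genes were lower and 21.6% higher. The lower markers were about as frequent as lower genes on the whole array. Only 2 were lower without knockout array 1 or without wild-type array 3, and 2 were higher without wild-type array 1 or 2. Aqp4, a water channel of the blood face, fell 4.28-fold and Kcnj1, the potassium channel ROMK, which the thick limb also makes, 2.29-fold. Gata3, a transcription factor of the duct lineage, rose 2.34-fold. Aqp2, the vasopressin-regulated water channel, was chosen after its values were seen and did not pass the test, with 10.86, 11.11 and 11.31 in knockout arrays, against 11.32, 11.47 and 11.18 in wild-type arrays (log2 difference -0.23, SE 0.13, limma adjusted p = 0.179). The difference between the principal and intercalated lists was not tested.

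Upstream segments fell as well, where 27.7% of all genes were called lower and 21.6% higher. All 11 measured loop and distal tubule markers were lower (median -1.20), led by the calcium-binding protein Pvalb at 12.5-fold, the growth factor Egf at 12.2-fold and the thiazide-sensitive cotransporter Slc12a3 at 3.73-fold. With the probe sets of each gene averaged, 9 of them were lower, when 30.0% of all genes were lower. Of 12 proximal tubule markers, 10 were lower (median -1.55), led by the transporters Slc6a19 at 7.29-fold, Slc5a12 at 6.68-fold and Slc5a2 at 5.29-fold. Aqp1 (log2 difference -0.04) and Slc7a13 (-1.26) did not pass the test. The proximal tubule reclaims filtered bicarbonate and makes ammonia from glutamine. Of 11 measured genes of those steps, 10 were lower and 0 higher (median -1.45). Car4, a carbonic anhydrase on the urinary membrane, fell 6.05-fold, the membrane carbonic anhydrase Car14 5.71-fold, and Slc9a3, the sodium-proton exchanger NHE3, 5.23-fold. The median of the 9 intercalated cell genes, -1.13, stood beside these 3 medians, and whether it differs from them was not tested.

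**Figure D4:**
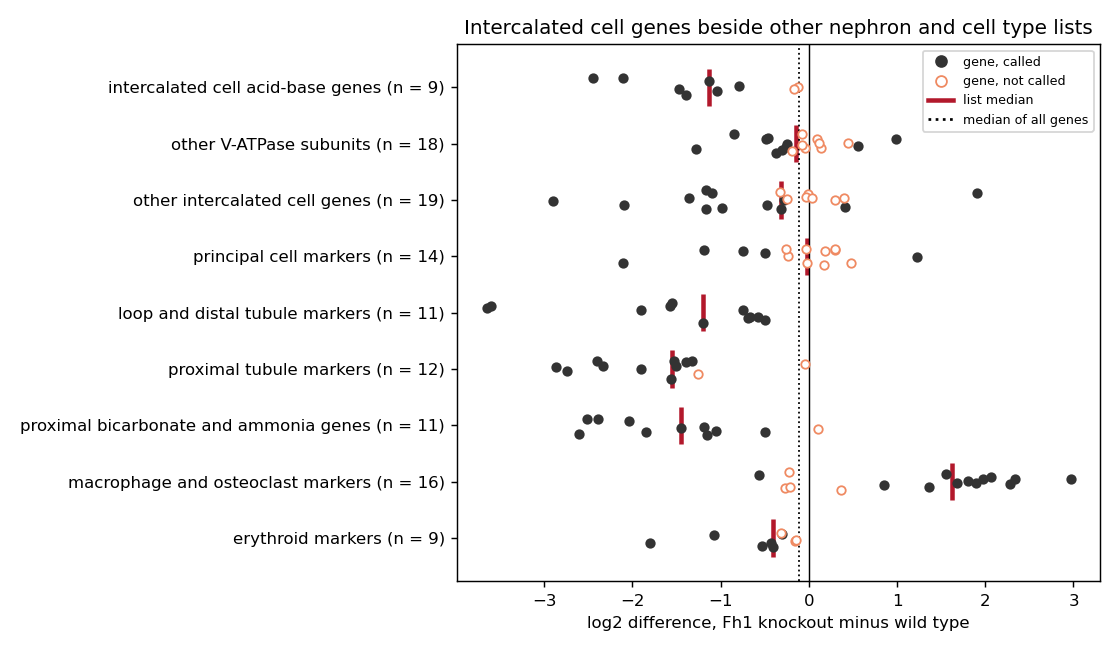
Log2 difference, Fh1 knockout minus wild type (horizontal axis), of each gene of the intercalated cell group and of 8 other lists, filled where limma called the gene, with a bar at each list's median and a dotted line at the median of all genes. The intercalated group has a median of -1.13, near the loop and distal list at -1.20, whereas other intercalated cell genes centre on -0.32. Principal cell markers centre on -0.02 and macrophage markers on 1.62.

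Over the 6 arrays, the genes whose profile was most like that of Slc26a4 were Cgnl1, Lrp2 and Hao2, with Pearson r of 0.9995, 0.9994 and 0.9994. Lrp2 is the endocytic receptor megalin of the proximal tubule. For Slc4a1 they were Gper1, 2810013P06Rik and Pxmp2, with r of 0.9995, 0.9993 and 0.9977. With 6 arrays in 2 groups such values mostly record the step between groups, and 1383 genes exceeded r = 0.95 for Slc26a4 and 1003 for Slc4a1. Pairwise r among the 7 genes that fell ran from 0.90 to 1.00. Those with the same 7 ran from 0.52 to 0.81 for Foxi1 and from 0.40 to 0.61 for Atp6v0d2. The 7 had been called on the step between these same groups, so these r restate the calls and add nothing to them. Foxi1 and Atp6v0d2 had r of 0.79 with each other. Wild-type array 2 held the highest wild-type value of 8 of the 9 genes, and the share of all genes for which it did was not counted.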

How the data were processed

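The table deposited by the authors holds 45101 probe sets on 6 arrays. The deposited values are on the log2 scale, as read from their range of 2.9 to 14.8, and RMA is named in the submitters' processing notes; no source used here gives its version or chip definition. RMA gives no detection call and compresses differences of dim genes. With 3 arrays a group, their number limits the precision.

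Gene names came from the platform annotation supplied (34945 with 1 gene, 932 with several, 9160 with none, 64 controls), and symbols were updated through Entrez identifiers to the RefSeq table of GRCm38.p6 for 34741. A gene's values are those of its brightest probe set, by the mean of the 6 arrays. The groups were tested by limma 3.58.1 in R 4.3.3 (lmFit, then eBayes), 2-sided, adjusted by Benjamini-Hochberg over 18193 genes at 0.05. Differences between paired genes used exact permutation (scipy 1.17.1). "Called" means an adjusted p under 0.05, and a fold is 2 to the power of the log2 difference.

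The genes and lists were chosen with earlier results of these data known. Named were all 10 genes, Fh1, the partner subunits, the 3 genes with the largest called change in each list and the largest in the other direction, and the 3 most similar profiles of Slc4a1 and Slc26a4. Further genes of the lists were named with their values in view. The code of the fit was run on simulated data with far fewer changed genes than were called here, which tests the code and not these calls. Plots used matplotlib 3.10.9 and Python 3.11.15.

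Replicate numbers recur in both groups. Deviations of same-numbered arrays correlated at -0.10, -0.13 and -0.13 across genes, so the numbers were not taken as pairs.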

Additional observations from a re-analysis of the deposited data

How the results depend on the processing

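The alternatives were to average a gene's probe sets, to keep only the brighter genes (from the median signal upward), a trended robust prior, centring on the median of all probe sets or of the genes tested, quantile normalisation, array weights, a replicate block, all probe sets, and each array left out. The 7 intercalated cell genes called lower stayed 7 under each of these, except 6 among the brighter genes, where Atp6v1c2 was below that signal and not tested; 0 were higher. No gene of the 9 crossed the threshold in any alternative that tested it. The sign of Atp6v0d2 turned without wild-type array 2 (0.01, with -0.28 to 0.01 over the arrays left out), and the change of Atp6v0d2 relative to Atp6v0d1 turned without wild-type array 3 (-0.03, range -0.03 to 0.27); the cause was not tested. Alternatives for the partner subunits were added after seeing the data. The pair of Atp6v1g3 and Atp6v1g1 was not run. With the replicate block, 5 other V-ATPase subunits were lower, and 3930 genes were lower and 3510 higher in all; Atp6v0d1 lost its call (adjusted p = 0.0770). With the mean of probe sets 1 other V-ATPase subunit was higher, as Atp6v0a1 (0.25, adjusted p = 0.137) lost its call. Among the brighter genes, 10 of the 19 other intercalated cell genes were tested, of which 6 were lower and 1 higher. In that setting 0 erythroid markers were lower, as 0 of them were tested. Of all genes tested there, 25.7% were lower and 32.4% higher, and the lower genes numbered 2334, since fewer genes were tested. Other intercalated cell genes called higher numbered 1 after centring on the genes tested and 1 after quantile normalisation. With array weights 2 principal cell markers were lower. Macrophage markers called lower numbered 2 with the mean of probe sets and with either centring. Over all probe sets 10529 were lower and 9271 higher, since more features were tested. Leaving out 1 array gave 5 to 9 other V-ATPase subunits lower, 1 to 4 other intercalated cell genes higher, 2 to 3 principal cell markers lower and 1 to 2 higher, 1 to 2 macrophage markers lower, 4 to 7 erythroid markers lower, and 3160 to 4810 of all genes lower. The median log2 difference of all genes was -0.19 after centring on the genes tested, against -0.11 as reported.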
